A study of Mus musculus with 10 samples.

Results

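Epithelial to mesenchymal transition is followed here through 10 genes in mouse embryonic stem (ES) cells. They are the epithelial genes Cdh1, Epcam and Cldn6, the mesenchymal genes Cdh2 and Vim, and the transcription factor genes Snai1, Snai2, Twist1, Zeb1 and Zeb2. The genes were picked by symbol and matched to the gene IDs of the deposited expression tables, where all 10 were found among 22713 genes. The choice of symbols used no measured value, but it was made with other results of these data known.

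The study sequenced mRNA of ES cells depleted of Pontin, of Oct4 or of the long noncoding RNA linc1253, to compare gene expression after loss of each. Pontin (Ruvbl1) is an ATPase of several chromatin-remodelling complexes. Pontinf/f; CreER ES cells, which carry floxed Pontin alleles and a Cre that 4-hydroxy tamoxifen (OHT) activates, gave 1 library before OHT (WT), 1 at 3 days (OHT 3D) and 1 at 4 days after OHT (OHT 4D). WT cells carry the same floxed alleles and the same Cre, and an OHT-treated line without floxed alleles was not analysed here. ZHBTc4 ES cells, whose only Oct4 comes from a transgene that tetracycline (Tc) shuts off, gave 1 library at 2 days of Tc (Tc 2D). ZHBTc4 cells without Tc, infected with shRNA lentivirus and selected with puromycin, were collected at 4 days after infection, as 2 libraries for the control shRNA and 2 for the linc1253 shRNA. Chromatin immunoprecipitation (ChIP) of ZHBTc4 cells gave 1 library with an antibody against Pontin and 1 with an antibody against GFP as the control. The sources used here do not say which cultures were kept on mouse embryonic fibroblast feeders and which were feeder-free.

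Epithelial cells adhere through E-cadherin (Cdh1), EpCAM and the claudins of tight junctions. In the transition to a mesenchymal state, factors of the Snail, Twist and Zeb families repress Cdh1 and other junction genes, and the cells take up N-cadherin (Cdh2) and the intermediate filament protein vimentin (Vim). Mouse ES cells are themselves epithelial, and E-cadherin holds their colonies together.

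Snail and Zeb factors bind an E-box, a short DNA element written CACCTG on one strand and CAGGTG on the other. Each gene was searched for it on both strands from 250 bases before to 50 bases after its annotated start in the NCBIM37 genome. Counted with the first base of the gene as position 0, the Cdh1 window held 3 matches, at -69 to -64, -63 to -58 and -13 to -8, of which the first pair abut without sharing a base. Windows with 3 or more matches made up 0.371% of 22380 protein-coding genes. Epcam held 2 matches, at -187 to -182 and -19 to -14, and Cldn6 held 2, at -93 to -88 and at 40 to 45. Of the other members, Zeb1 held 2 and Snai1 held 1, and Cdh2, Vim, Snai2, Twist1 and Zeb2 held none of these letters in this window. At least 2 matches were present in 2.83% of the windows and at least 1 in 19.9%. A match describes the letters only, and says nothing of binding in these cells. The 250 bases before the start of the epithelial genes are printed 5′ to 3′ with the matches in capitals, because these are the genes that the Snail and Zeb factors are known to repress. All are on the plus strand of NCBIM37, Cdh1 at chr8:109127001-109127250, Epcam at chr17:88035069-88035318 and Cldn6 at chr17:23816082-23816331.
Cdh1: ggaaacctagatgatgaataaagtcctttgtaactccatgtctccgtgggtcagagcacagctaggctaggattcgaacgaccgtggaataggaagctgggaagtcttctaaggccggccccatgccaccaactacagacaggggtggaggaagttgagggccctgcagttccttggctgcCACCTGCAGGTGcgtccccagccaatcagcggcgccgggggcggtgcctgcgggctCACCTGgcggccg
Epcam: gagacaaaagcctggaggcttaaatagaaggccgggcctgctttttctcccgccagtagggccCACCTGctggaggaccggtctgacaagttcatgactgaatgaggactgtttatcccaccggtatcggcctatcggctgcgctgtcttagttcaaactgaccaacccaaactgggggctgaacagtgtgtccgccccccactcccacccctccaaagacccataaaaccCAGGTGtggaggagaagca
Cldn6: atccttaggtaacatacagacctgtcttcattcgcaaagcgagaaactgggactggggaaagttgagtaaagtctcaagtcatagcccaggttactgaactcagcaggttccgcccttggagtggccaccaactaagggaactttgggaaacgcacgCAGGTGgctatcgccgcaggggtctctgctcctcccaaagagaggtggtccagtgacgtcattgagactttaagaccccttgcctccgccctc

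Expression is given in CPM, read counts scaled to library size with TMM normalisation, which also uses RNA composition. Summed over genes, the CPM came to 638591 at Tc 2D, 798811 in WT, and 980063 and 1015095 in the control shRNA libraries. The reads behind each value were recovered from the smallest step of each library. Reads on genes ranged from 17187595 at OHT 3D to 37951742 in linc1253 shRNA replicate 1. WT, OHT 3D, OHT 4D and Tc 2D were normalised together, and the 4 shRNA libraries apart from them. Ruvbl1 was at 198 CPM in WT, and at 33.3 and 50.9 in the OHT 3D and OHT 4D libraries. It was also lower at Tc 2D, at 85.0 CPM, than in WT or in the control shRNA libraries, at 166 and 186, and Pou5f1 (Oct4) was at 301 CPM in WT and 21.1 at Tc 2D. The 9 pluripotency markers summed to between 3259 and 6471 CPM in the other 7 libraries and to 449 at Tc 2D. There all 9 were called lower than the control shRNA mean of the same line, beside 30.1% of all genes, and 8 of the 9 lower than WT, beside 25.8%, where Zfp42 was at 61.4 CPM beside 76.2 at Tc 2D. A call here is a log2-fold-change past 0.58 in size after 1 was added to the CPM.

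In WT the epithelial genes stood far above the rest when CPM was divided by exon length. Epcam reached 133 CPM per kb, Cdh1 112 and Cldn6 52.3. Vim followed with 14.6 CPM per kb, and Twist1, Snai1, Cdh2, Snai2 and Zeb2 were at 1.13, 0.607, 0.477, 0.154 and 0.0407. The control shRNA libraries of ZHBTc4 had another order, with Vim at 92.8 and 69.7 CPM per kb beside Cdh1 at 74.4 and 97.0 and Epcam at 30.9 and 65.8. Exon length is the union of all annotated exons, so these levels are approximate, most of all for Zeb2 with its 15.4 kb of exons.

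**Figure D1:**
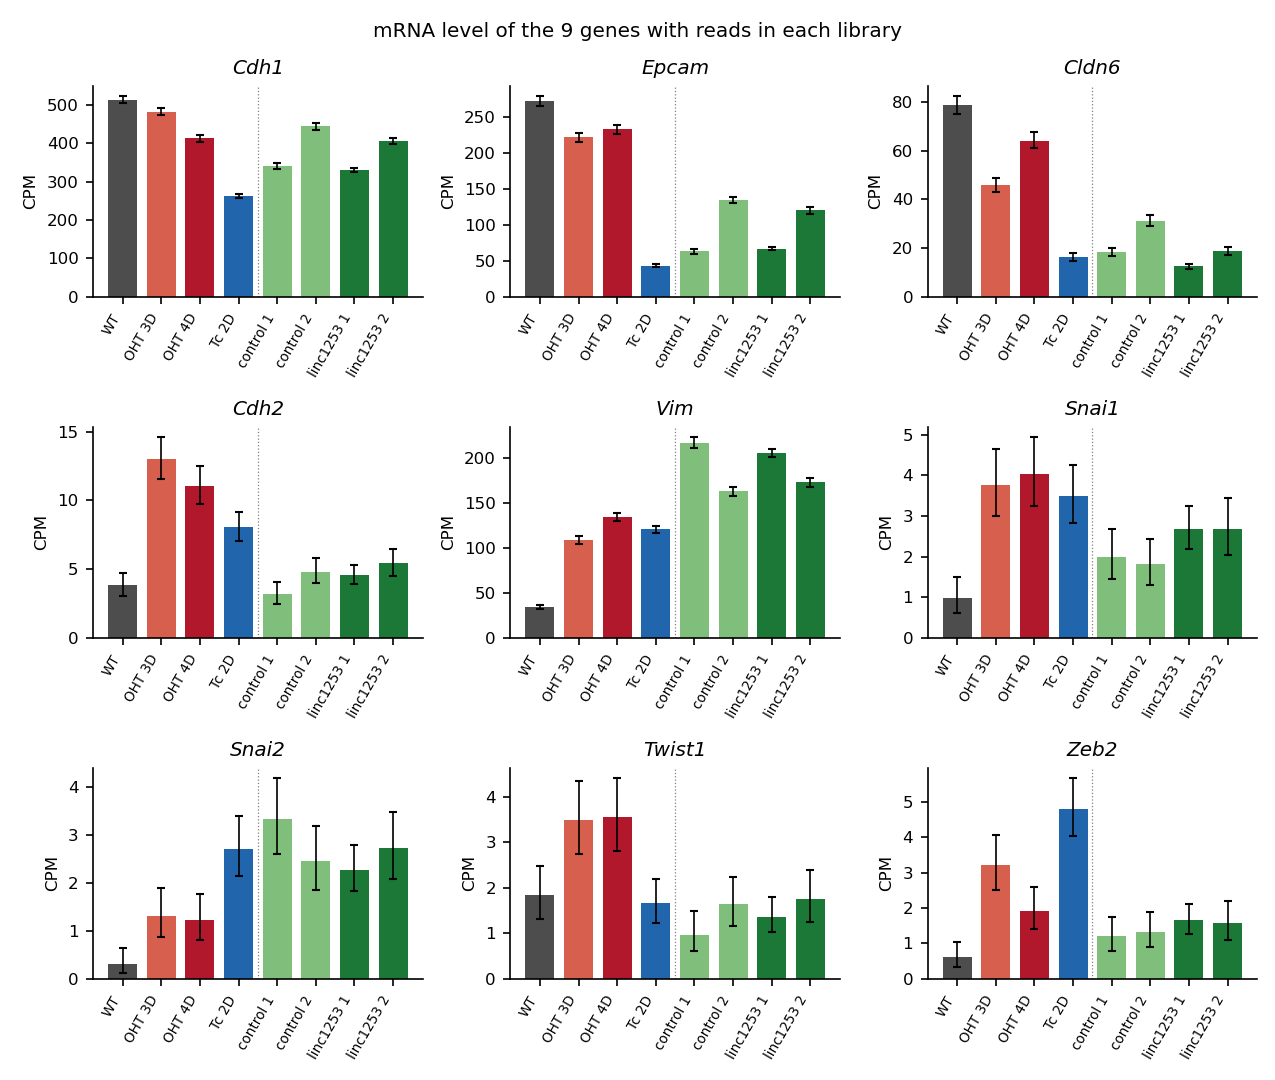
CPM of the 9 members with reads (y axis, 1 scale per gene) in each mRNA library (x axis; the dotted line parts the separately normalised tables). Bars are single libraries and error bars are exact Poisson 95% intervals of counting alone. The epithelial genes are highest in WT, and Vim, Snai1, Snai2 and Zeb2 are lowest in WT.

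Loss of Pontin left Cdh1 and Epcam near their WT level while the mesenchymal genes and 4 transcription factor genes were higher. Among the 9 members past the filter of a CPM above 1 in any library of the table, 6 were called higher at OHT 3D (Cdh2, Vim, Snai1, Snai2, Twist1, Zeb2) and 1 lower (Cldn6). Of the 13449 genes past the filter, 6.01% were called higher and 5.88% lower at OHT 3D. At OHT 4D the same 6 members were called higher and 0 lower, against 6.48% and 8.89% of all genes. With 1 library per time point these differences have no replicate check, and both time points share the WT library. Snai1, Snai2 and Zeb2 were under 1 CPM in WT and passed the filter only through libraries in which they were higher, so their calls are a description of the filter as well as of the genes.

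Among the epithelial genes, Cdh1 was at 513 CPM in WT and at 482 and 412 in the OHT 3D and OHT 4D libraries, a log2-fold-change of -0.09 and then of -0.31. Epcam was at 272, 222 and 232 CPM, with log2-fold-changes of -0.29 and -0.22. All depleted values lay below WT and none passed the threshold. Cldn6, a claudin of early embryonic epithelia, had 78.8 CPM in WT, then 45.9 and 64.2 after OHT. The changes were -0.77 and -0.29 on the log2 scale, so the lower call was made at 3 days alone. Between the time points, Cldn6 was higher at OHT 4D by a log2 CPM ratio of 0.48, with a 95% counting interval of 0.37 to 0.60.

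Vim had 34.1 CPM in WT and reached 109 and 134 in the OHT 3D and OHT 4D libraries. The CPM ratio to WT was 3.19 and then 3.94, and on the log2 scale 1.67 (counting interval 1.56 to 1.79) and 1.98 (1.86 to 2.09). Vim was thus also higher at OHT 4D than at OHT 3D, by 0.30 on the log2 CPM scale (0.23 to 0.38). Cdh2 was at 3.84 CPM in WT and at 13.0 and 11.1 in the OHT 3D and OHT 4D libraries, and rested on 86, 288 and 253 reads. Its CPM ratio to WT was 3.39 and then 2.88. For Cdh2 the log2 ratio of OHT 4D over OHT 3D was -0.23, and its counting interval of -0.48 to 0.02 included no change. For Vim as for Cdh2 these intervals leave out the spread between cultures, which single libraries cannot show.

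The transcription factor genes were all below 5 CPM. Snai1 (Snail) had 0.983 CPM in WT, then 3.76 and 4.03 after OHT, from 22, 83 and 92 reads. Snai2 (Slug) was at 0.313, 1.31 and 1.23 CPM, from 7, 29 and 28 reads. Both depleted libraries were above WT in each case. At OHT 3D the counting interval of the log2 CPM ratio to WT was 1.24 to 2.68 for Snai1 and 0.85 to 3.50 for Snai2, and covers neither the filter nor the spread between cultures. Twist1, a basic helix-loop-helix factor, was at 1.83, 3.48 and 3.55 CPM, with log2-fold-changes of 0.66 and 0.68, just past the threshold. Zeb2, a zinc-finger repressor, had 0.626 CPM in WT, then 3.21 and 1.93 after OHT. It was the member with the largest gap between the time points, lower at OHT 4D by a log2 CPM ratio of -0.74 (-1.31 to -0.17). Adding 1 to the CPM shrinks the change of such low genes, and the log2-fold-changes at OHT 3D were 1.26 for Snai1, 0.82 for Snai2 and 1.37 for Zeb2. With 3 added in place of 1, Snai2 (0.38 and 0.35) and Twist1 (0.42 and 0.44) were not called at either time point, nor Zeb2 at OHT 4D (0.44). Zeb1 was listed at 0 reads in all 8 libraries, as were 13.0% of the protein-coding genes in the tables. A count of 0 allows up to 3 reads, between 0.0773 and 0.138 CPM by library, and how the reads over Zeb1 were assigned was not tested.

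**Figure D2:**
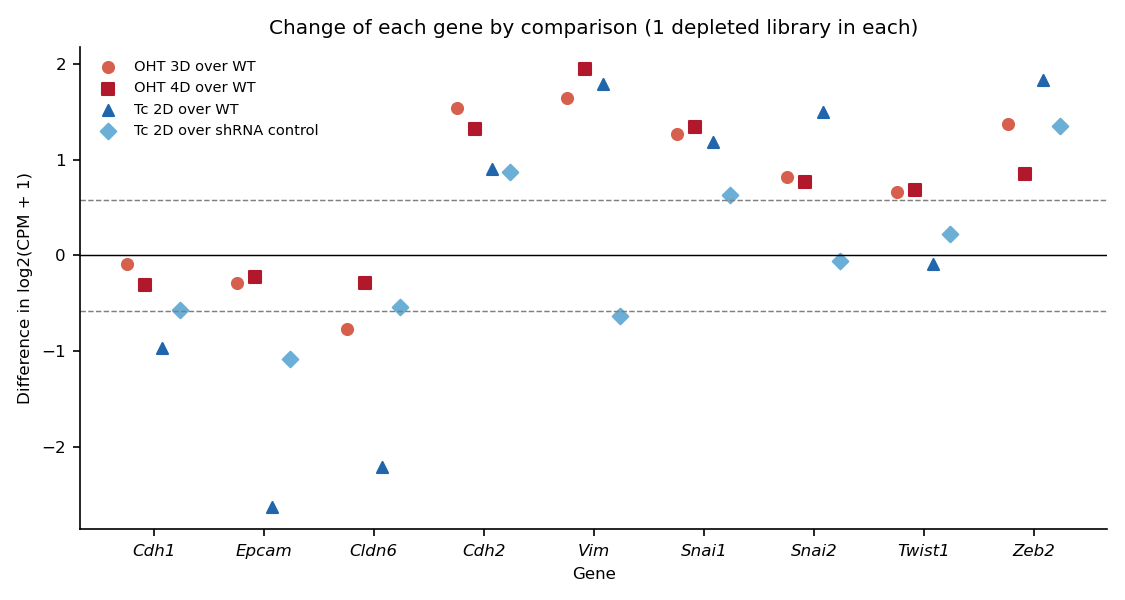
Difference in log2(CPM + 1) (y axis) of the 9 members with reads (x axis) in each comparison, 1 point per gene and comparison; dashed lines mark the call threshold of 0.58. Cdh2, Vim, Snai1, Snai2 and Zeb2 lie above the upper line in all comparisons with WT, while against the control shRNA libraries of the same line Tc 2D gives Vim a value of -0.64 and Snai2 one of -0.06.

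The balance of mesenchymal to epithelial reads within a library does not depend on normalisation. For each 100 Cdh1 reads WT held 6.65 Vim reads and the OHT 3D and OHT 4D libraries 22.6 and 32.6. For each 100 Epcam reads there were 12.6, 49.1 and 57.8 Vim reads. Cdh2 gave 0.750, 2.70 and 2.69 reads for each 100 Cdh1 reads. Every depleted library of the Pontinf/f; CreER line lay above WT in these 3 ratios, and the counting intervals did not meet that of WT. Cdh1 reads remained more numerous than Vim reads in all 8 libraries, but Cdh1 has 4.57 kb of exons and Vim 2.33 kb. Divided by exon length, Vim was above Cdh1 in control shRNA replicate 1, at 92.8 against 74.4 CPM per kb. The same held in linc1253 shRNA replicate 1, at 88.0 against 72.0.

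**Figure D3:**
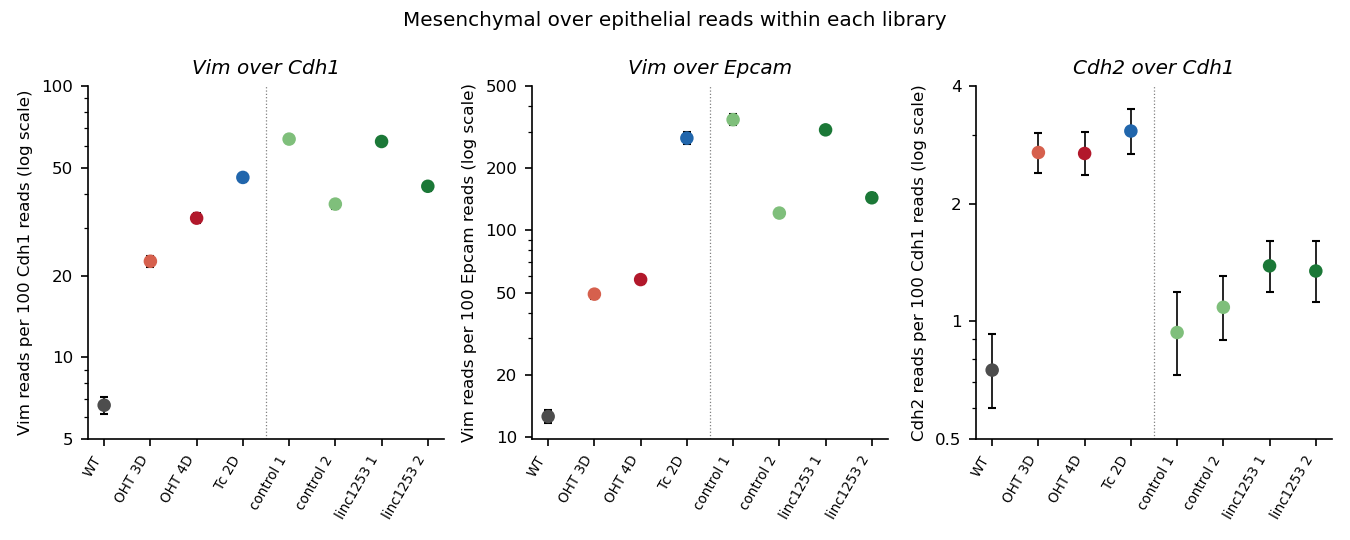
Reads of a mesenchymal gene for each 100 reads of an epithelial gene (y axis, log scale) in each library (x axis). Points are single libraries, bars are exact binomial 95% counting intervals. WT is lowest in each panel, and the libraries numbered 1 of both shRNA groups lie above those numbered 2 for Vim over Cdh1 and Vim over Epcam.

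Markers of fibroblasts moved with the Pontin-depleted libraries. Of 14 fibroblast markers, 11 passed the filter, and all 11 were called higher at both OHT 3D and OHT 4D, against 6.01% and 6.48% of all genes, with a median log2-fold-change of 2.19 and 1.76. Of these, 6 were under 1 CPM in WT and passed the filter through libraries in which they were higher, so the count is a description. The other 5 were Col1a1, Col1a2, Col5a1, Thy1 and Fbn1. The 14 summed to 28.7 CPM in WT, to 160 and 196 in the OHT libraries, and to 59.1 at Tc 2D. Dcn, Lum and Fap did not pass the filter, with Dcn at 0.134 CPM in WT and at 0.498 and 0.832 in the OHT libraries. Lum and Fap were at 0 in WT and at OHT 3D, and Dcn, Lum and Postn were at 0 at Tc 2D. Col1a1, a chain of type I collagen, had 4.20 CPM in WT, 46.5 and 64.6 in the OHT libraries and 1.34 at Tc 2D. Fibroblasts are known to express Vim strongly, along with Cdh2, Snai2, Twist1 and Zeb2, and the part of fibroblast RNA in the changes of the members was not tested. In bulk RNA, more cells of a type cannot be told apart from more RNA per cell.

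Wider lists of the same kind of genes were counted against the same background. Of 24 further mesenchymal genes, 12 were called higher and 0 lower at OHT 3D, against 6.01% and 5.88% of all genes, with a median log2-fold-change of 0.58 against -0.02 over all genes. At OHT 4D 14 were higher and 1 lower, against 6.48% and 8.89%. At both time points 4 of those called higher (Cdh11, Lox, S100a4, Foxc2) were under 1 CPM in WT and passed the filter through libraries in which they were higher, so these counts are a description. The largest rises were those of Tnc, an extracellular matrix protein, at 4.71 and 4.31, and of Acta2, smooth muscle actin, at 3.79 and 4.03. Of 37 further genes of epithelial junctions and their regulators, 2 were higher and 8 lower at OHT 3D, and 5 were higher and 8 lower at OHT 4D, with medians of -0.09 and 0.01. Tjp3, a tight junction scaffold, had a log2-fold-change of -1.06 and the polarity gene Crb3 one of -0.996 at OHT 3D, whereas the keratin genes Krt8 and Krt18 were higher at 1.67 and 1.27. At OHT 4D Krt8 and Krt18 reached 2.90 and 2.57. Of 14 genes of TGF-beta signalling, a known inducer of the transition, 4 were higher and 0 lower at OHT 3D and 3 were higher and 1 lower at OHT 4D, against the same shares of all genes. Tgfb2 and Tgfb3, called higher at both, were also under 1 CPM in WT. The gene called lower was Skil, a repressor of the pathway, at -1.23.

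**Figure D4:**
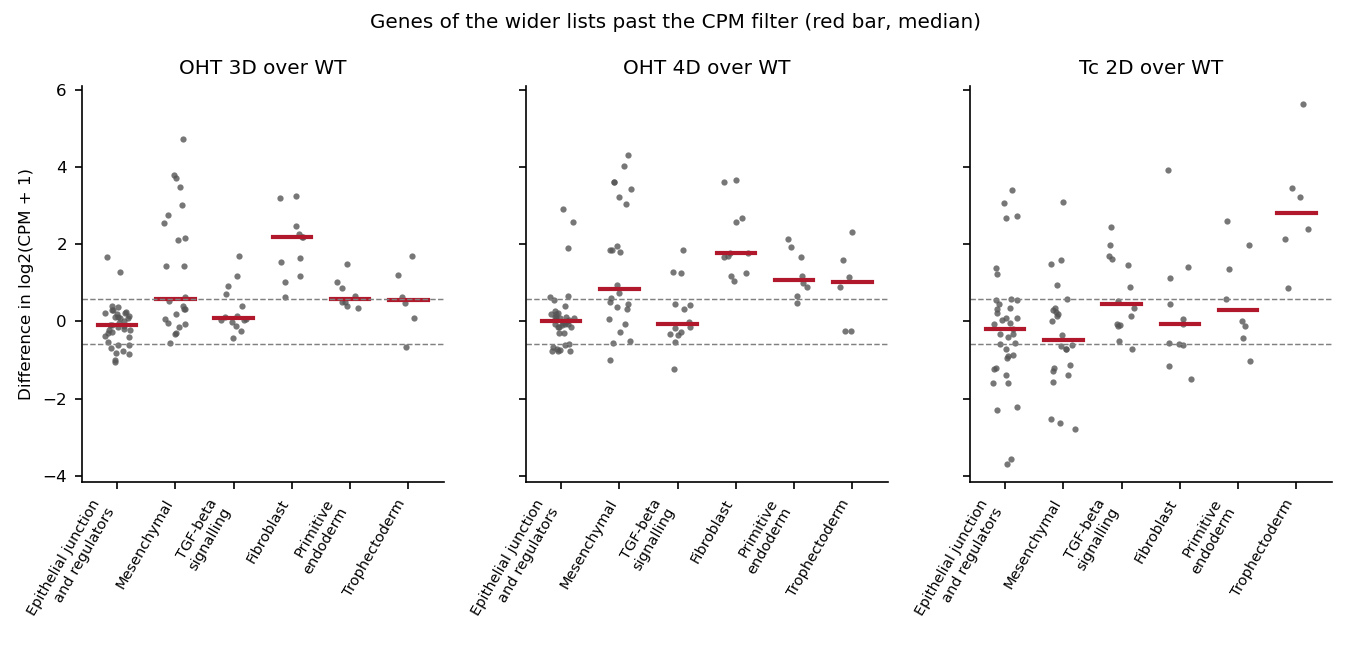
Difference in log2(CPM + 1) (y axis) of the genes past the filter in each wider list (x axis), for OHT 3D, OHT 4D and Tc 2D over the shared WT library. Points are genes, red bars medians, dashed lines the call threshold. All fibroblast markers past the filter lie above the upper line at OHT 3D and OHT 4D. At Tc 2D their median is -0.07 while that of trophectoderm markers is 2.81.

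Loss of Oct4 was set against the same WT library, which comes from the other cell line. All 3 epithelial members were called lower at Tc 2D and 5 of the other members higher (Cdh2, Vim, Snai1, Snai2, Zeb2). In the background, 23.9% of all genes were called higher and 25.8% lower. Line and treatment cannot be told apart in this comparison. The ZHBTc4 libraries with a control shRNA are of the same line but were normalised in the other table and were infected, so both references are given. Against them, 17.8% of 13984 genes were called higher and 30.1% lower, which was 2483 and 4205 genes, and on one median-ratio scale for all 8 libraries 3284 and 3286. That scale moved the median over all genes from -0.17 to -0.01.

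Epcam was at 43.1 CPM at Tc 2D, below 272 in WT and below 63.1 and 134 in the control shRNA libraries. Its log2-fold-change was -2.63 over WT and -1.08 over the control shRNA mean, and it was lower under both references. Cdh1 was at 262 CPM at Tc 2D against 513 in WT and 340 and 444 in the control shRNA libraries. The log2-fold-change was -0.97 over WT and -0.57 over the control shRNA mean, the latter just inside the threshold, and -0.38 on one median-ratio scale. Cldn6 was at 16.3 CPM at Tc 2D and 78.8 in WT, but at 18.4 and 31.3 in the control shRNA libraries, so that its log2-fold-change went from -2.21 to -0.54, and to -0.36 on one median-ratio scale. Tc 2D was the lowest library of the 8 for Cdh1 and Epcam, and for Cldn6 a linc1253 shRNA library was lower, at 12.5.

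The reference decided the direction of Vim. Vim was at 121 CPM at Tc 2D, above the 34.1 of WT but below the 217 and 163 of the control shRNA libraries. Its log2-fold-change was 1.79 over WT, -0.64 over the control shRNA mean, where it was called lower, and -0.45 on one median-ratio scale, where it was not called. Snai2 was at 2.71 CPM at Tc 2D, 0.313 in WT and 3.32 and 2.45 in the control shRNA libraries, with a log2-fold-change of 1.50 over WT, -0.06 over the control shRNA mean and 0.08 on one median-ratio scale, and was called over WT alone. Zeb2, Cdh2 and Snai1 were called higher under both references. Zeb2 was at 4.79 CPM at Tc 2D, its highest level, beside 1.20 and 1.33 in the control shRNA libraries, and its log2-fold-change was 1.83 over WT and 1.35 over the control shRNA mean. Cdh2 was at 8.04 CPM beside 3.18 and 4.82, with 0.90 and 0.87. Snai1 was at 3.49 CPM beside 1.98 and 1.81, with 1.18 and 0.63. Twist1 was at 1.66 CPM at Tc 2D and 1.83 in WT, with -0.09 over WT and 0.22 over the control shRNA mean, and was called under neither reference.

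For each 100 Cdh1 reads the Tc 2D library held 46.0 Vim reads and 3.07 Cdh2 reads. The control shRNA libraries held 63.7 and 36.7 Vim reads, on either side of Tc 2D, but 0.936 and 1.09 Cdh2 reads. Of the 11 fibroblast markers past the filter, 3 were higher at Tc 2D than in WT (Pdgfrb at 25.1 CPM, Fbn1 at 7.58 and Col5a1 at 17.1) and 3 were lower (Col1a1 at 1.34 CPM, Col1a2 at 0.352 and Col3a1 at 0.0352). Over the control shRNA mean 1 of the 11 was higher, Pdgfrb, and 4 were lower, beside 17.8% and 30.1% of all genes. Col5a1 went from 1.12 over WT to -0.70 over the control shRNA mean, and Fbn1 from 1.41 to -0.56. All 14 fibroblast markers summed to 59.1 CPM at Tc 2D and to 28.7 in WT. They summed to 99.5 and 82.1 in the separately normalised control shRNA libraries. These sums rested on a few markers. In control shRNA replicate 1 the highest were Col5a1 at 33.8 CPM, Thy1 at 33.5, Fbn1 at 12.1 and Pdgfrb at 11.9. Col1a2 was there at 0.738 CPM, Col3a1 at 0.0923 and Postn at 0.0461, below WT at 2.82, 0.581 and 0.492. The part of fibroblast markers in the changes of the members was not tested. Of the 24 further mesenchymal genes, 5 were higher and 12 lower over WT, where 23.9% and 25.8% of all genes were called, and 6 were higher and 11 lower over the control shRNA mean, where the shares were 17.8% and 30.1%. Acta2 had a log2-fold-change of -2.79 and the protease gene Mmp14 one of -2.63 over WT, while Tgfbi, a matrix protein, was higher at 3.10 over WT and 1.80 over the control shRNA mean.

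The wider epithelial list depended on the reference as well. Of its 37 genes, 7 were higher and 13 lower over WT, beside 23.9% and 25.8% of all genes, and 17 were higher and 8 lower over the control shRNA mean, beside 17.8% and 30.1%. Over WT the lowest were Esrp1, an epithelial splicing factor, at -3.70 and Rab25 at -3.57, and over the control shRNA mean these were at -0.59 and -1.18. The control libraries differed widely for both genes. Esrp1 was at 5.15 CPM at Tc 2D, between the controls at 2.49 and 23.6. Rab25 was at 0.564 CPM, below the controls at 0.969 and 5.42. Krt18 was higher under both references, at 3.08 and 3.09. Of the 14 genes of TGF-beta signalling, 6 were higher and 1 lower over WT, and 5 were higher and 1 lower over the control shRNA mean. Tgfbr3, a co-receptor, was at 2.44 and 1.35, and Smad7, an inhibitor that the pathway itself induces, was at 1.61 over WT.

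Knockdown of linc1253 gave no call among the members in the fits without the replicate number as a block. With that block 1 member, Cldn6, was called lower. limma with Benjamini-Hochberg adjustment, fitted to 13407 genes over 2 libraries against 2, called 0 genes higher and 0 lower, which is 0% of the background, with 0.265 as the lowest adjusted p. Unadjusted, at a p below 0.05, it had 496 genes higher and 503 lower, and 0 of the 9 members tested. The quasi-likelihood test of edgeR also called 0 genes, while DESeq2 called 23 higher and 27 lower with no member among them. The paper did report changed genes after this knockdown, by another criterion. It combined the p-values of the edgeR exact test and of a log2-median-ratio test. The labels do not say that the libraries came from separate cultures, so the p-values given here measure only the spread between samples, which may be technical.

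Snai1 was at 1.98 and 1.81 CPM in the control libraries and at 2.68 and 2.68 in the knockdown libraries, and the groups did not overlap. Its log2-fold-change was 0.35 ± 0.15 (SE, n = 2 per group, limma adjusted p = 0.675). Zeb2 was at 1.20 and 1.33 CPM in the control libraries and at 1.65 and 1.58 after knockdown, again without overlap, with a log2-fold-change of 0.21 (limma adjusted p = 0.793). Both knockdown libraries were above both controls for these 2 of the 9 members and below both for 0, beside 18.8% and 19.2% of all genes. The counting intervals overlapped between the groups. Snai1 had 1.44 to 2.67 CPM in control replicate 1 and 2.05 to 3.44 in linc1253 shRNA replicate 2. Zeb2 had 0.906 to 1.89 CPM in control replicate 2 and 1.11 to 2.19 in linc1253 shRNA replicate 2. Cldn6 had the largest difference with all 4 libraries, from 18.4 and 31.3 CPM in the controls to 12.5 and 18.8, with a log2-fold-change of -0.62 ± 0.28 (SE, n = 2 per group, limma adjusted p = 0.693). The groups overlapped for Cldn6, since one knockdown library was above one control. Between same-numbered libraries Cldn6 was lower after knockdown both times, with log2 differences of -0.52 and -0.71. A limma fit with the replicate number as a block called Cldn6 lower (limma adjusted p = 6.79e-05), though the labels name no pairing. Without control replicate 2 the log2-fold-change of Cldn6 was -0.25, smaller in size than that of Cdh2 at 0.52 and Epcam at 0.50. Without control replicate 1 it was -0.99.

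Cdh1, Epcam and Vim differed more within the groups than between the group means. Cdh1 was at 340 and 444 CPM in the controls and 329 and 405 after knockdown, and Epcam at 63.1 and 134 and then 67.0 and 120. Vim was at 217 and 163 CPM in the controls and 205 and 173 after knockdown, for a mean of 190 ± 38.2 and 189 ± 23.2 (SD, n = 2 each). In both groups the library numbered 1 had less Cdh1, Epcam and Cldn6 and more Vim than the library numbered 2. Cdh2 was at 3.18 and 4.82 CPM in the controls and 4.56 and 5.44 after knockdown. Snai2, at 3.32 and 2.45 and then 2.27 and 2.72, and Twist1, at 0.969 and 1.63 and then 1.37 and 1.75, overlapped as well. Fibroblast markers summed to 99.5 and 82.1 CPM in the controls and to 101 and 106 after knockdown. Among the fibroblast and further mesenchymal genes linc1253 shRNA replicate 2 stood apart, with the fibroblast marker Col1a2 at 8.77 CPM beside 0.738, 2.24 and 0.876 in the other shRNA libraries, and the mesenchymal genes Acta2 at 17.7 beside at most 3.31 and Tnc at 13.5 beside at most 2.97. Without that library the log2-fold-change was 0.35 for Snai1 and 0.23 for Zeb2.

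Of the 37 further epithelial genes, 14 had both knockdown libraries below both controls and 2 had both above, beside 19.2% and 18.8% of all genes, with a median log2-fold-change of -0.14 against -0.0011 over all genes. None of them passed the limma test at an adjusted p of 0.05 in the fit without a replicate block. The lowest were Cldn7, another claudin, at -0.81 ± 0.36 (SE, n = 2 per group, limma adjusted p = 0.691) and Tjp3 at -0.77 ± 0.14 (limma adjusted p = 0.485). With the replicate number as a block 1 of the 37 was called higher and 10 lower, beside 933 and 1027 of 13407 genes. Of the 23 further mesenchymal genes past the filter, 3 were above and 2 below without overlap, and of the 14 TGF-beta genes 5 were above and 0 below.

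Across the 8 libraries, the genes whose log2(CPM + 1) most resembled that of Cdh1 included Bcl6b, Thada, Trim13 and G6pdx, with Pearson correlations from 0.979 down to 0.976. Those most like Vim were Htra1, Car2, Fbn1, Col5a1 and Id1, from 0.972 down to 0.945. Fbn1 and Col5a1 also stand in the fibroblast list, but most of that list ran otherwise. Vim was at 134 CPM at OHT 4D and at 217 in control shRNA replicate 1. Thy1, Pdgfrb, Fbn1 and Col5a1 were likewise higher in that control library than at OHT 4D. The other fibroblast markers were lower there, such as Col1a2 at 0.738 CPM beside 45.6 and Postn at 0.0461 beside 8.63. The candidates were 2501 and 2500 genes with a mean of at least 5 CPM and an SD of at least 0.5. The points share cell lines and come from separately normalised tables, so these are descriptions.

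The annotation of NCBIM37 places Cdh1 (ENSMUSG00000000303) at chr8:109127251-109194146, Epcam (ENSMUSG00000045394) at chr17:88035319-88050446 and Cldn6 (ENSMUSG00000023906) at chr17:23816332-23819413. It places Cdh2 (ENSMUSG00000024304) at chr18:16747386-16967755 and Vim (ENSMUSG00000026728) at chr2:13495554-13504453. The transcription factor genes are Snai1 (ENSMUSG00000042821) at chr2:167363695-167368314, Snai2 (ENSMUSG00000022676) at chr16:14705945-14709488, Twist1 (ENSMUSG00000035799) at chr12:34642536-34644682, Zeb1 (ENSMUSG00000024238) at chr18:5591858-5775465 and Zeb2 (ENSMUSG00000026872) at chr2:44839154-44972915. Cdh2 and Zeb2 are on the minus strand and the others on the plus strand.

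The ChIP libraries held 40729076 Pontin reads and 17185883 GFP reads. From 2.5 kb before to 500 bases after the gene start, the log2 ratio of library-size scaled Pontin over GFP reads was above 1 for 0 of the 10 members, against 14.4% of 21193 protein-coding promoters. The median over all promoters was 0.34, from a median of 74 Pontin and 25 GFP reads. Members ranged from -0.17 at Cdh1, with 95 Pontin and 45 GFP reads, to 0.98 at Snai2, with 56 and 12. Exact binomial counting intervals were wide, -0.69 to 0.38 for Cdh1 and 0.06 to 2.01 for Snai2. Vim had 68 Pontin and 27 GFP reads and a log2 ratio of 0.09 (-0.58 to 0.79), and Epcam had 55 and 19 and a ratio of 0.29 (-0.49 to 1.12). At this depth a ratio of 1 was within the interval of Epcam, Cdh2, Snai2, Twist1 and Zeb1.

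The window mattered for this result. Within 1 kb on either side of the start, 3 members had a ratio above 1 (Twist1, Zeb1 and Epcam), against 25.4% of promoters. Twist1 had 74 Pontin reads and 4 GFP reads there, a log2 ratio of 2.96 (1.55 to 4.88) that exceeded that of 99.5% of promoters. The median promoter had 56 Pontin and 16 GFP reads in that window, so the ratio at Twist1 went with few GFP reads as well as with many Pontin reads. Zeb1, listed at 0 mRNA reads in every library, had 72 Pontin and 14 GFP reads and a ratio of 1.12 (0.28 to 2.06), and Epcam had 66 and 13 and a ratio of 1.10 (0.23 to 2.08). Cdh1 had 87 and 22 reads and a ratio of 0.74 (0.05 to 1.48). Vim had 36 and 22 reads and the lowest ratio, -0.53 (-1.34 to 0.30).

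**Figure D5:**
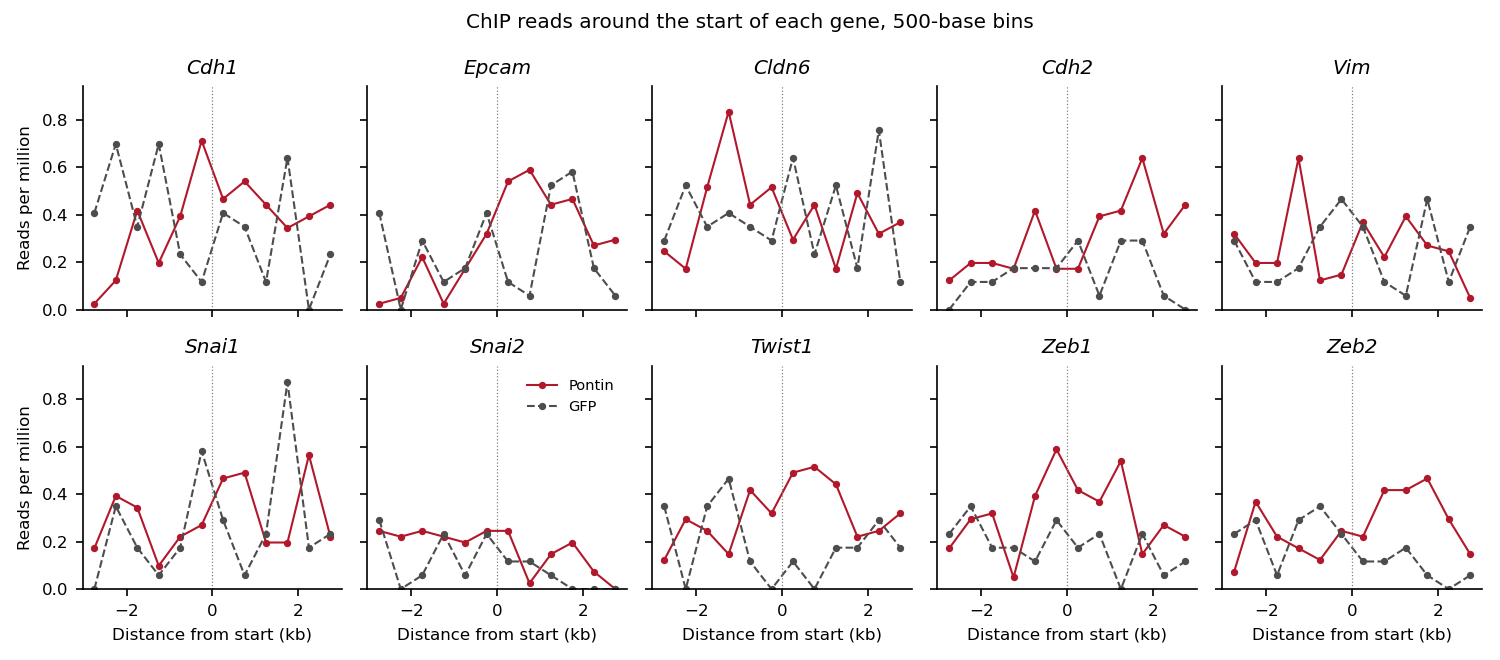
Pontin (red) and GFP (grey, dashed) ChIP reads scaled to library size (RPM) (y axis) in 500-base bins from 3 kb before to 3 kb after the start of each of the 10 genes (x axis, kb along the direction of transcription). Each line is 1 library, without replicates. Around the start Twist1 has 0 to 2 GFP reads in each bin from -1000 to 1000 bases, beside 13 to 21 Pontin reads.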

How the data were processed

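Messenger RNA of 8 libraries and ChIP of 2 libraries were used. The authors trimmed the mRNA reads with cutadapt, used TopHat to align them to NCBIM37 and HTSeq to count them, and deposited CPM after TMM normalization in edgeR, in 2 separately normalized tables. The kit named for the mRNA does not mark strand. All CPM were whole reads within 0.01 read, and the recovered reads per library ranged from 17187595 to 37951742. The deposited ChIP files list each read with its mapping quality score from Bowtie2, at least 5 for GFP and 6 for Pontin, and repeated reads were kept. Intervals (95%) and floors (3 reads) cover counting error only.

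Genes with a CPM above 1 in any library of a table were kept and 1 was added before log2. Single libraries were compared by the study's threshold of 0.58, without a test. For linc1253, limma 3.58.1 with trend was used, and edgeR 4.0.16 (quasi-likelihood and exact tests) and DESeq2 1.42.0 on the recovered reads were alternatives. Python 3.11.15 and SciPy 1.17.1 were used. The counting of ChIP reads in windows, the difference between single libraries and the linc1253 fits were tested on simulated data. The members and lists were chosen with earlier results of these data known. Genes named beyond the members are, per list and comparison, those with the 2 largest rises or falls at a mean of at least 5 CPM. Other markers and list genes named, such as Cubn, Cdh11 and Tgfb2, were named after their values were seen. Locations and starts are from the GENCODE annotation of NCBIM37, on the same build. Dab2 (2 IDs) and Tfap2c were not analysed here, and 1 gene that the likeness rule selects is not reported here.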

Additional observations from a re-analysis of the deposited data

How the results depend on the processing

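A pseudocount of 0.5, no filter and median-ratio rescaling left each count of called members within 1.5 times its value. With a filter at 5 CPM, 2 members were called higher at each of OHT 3D, OHT 4D and Tc 2D, since the transcription factor genes then drop out. Over all 11150 genes past that filter, 555, 590 and 2391 were called higher. At a pseudocount of 3, and likewise at a threshold of 1, 4 members were higher at OHT 3D, without Snai2 and Twist1, and 3 at OHT 4D, without Zeb2 as well. OHT 3D had 0 lower at that threshold, without Cldn6. Over all genes, a pseudocount of 3 left 445 of 808 genes higher and 498 of 791 lower at OHT 3D, and 496 of 872 higher at OHT 4D. A threshold of 1 left 255 and 125 genes at OHT 3D, 320 and 216 at OHT 4D, and 1718 and 1696 at Tc 2D. With the control shRNA libraries as the reference, Tc 2D had 3 members higher and 2 lower (Epcam and Vim) as deposited, and 3 higher and 1 lower (Epcam) on one scale, Vim went to -0.64 and -0.45, and Snai2 to -0.0565 and 0.0824. Within 1 kb of the start, 3 members had a Pontin ratio above 1. The causes were not tested beyond what each setting changes by construction.

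For linc1253, Vim went from 0.0037 to -0.0065 and -0.0068 in edgeR and -0.0027 in DESeq2, all near 0. Leaving out each shRNA library in turn left 0 members called, with a lone library assumed to vary like the other group. The log2-fold-change then ranged from -0.28 to 0.10 for Cdh1, -0.58 to 0.50 for Epcam, -0.99 to -0.25 for Cldn6, 0.041 to 0.52 for Cdh2, -0.20 to 0.21 for Vim, -0.31 to 0.014 for Snai2 and -0.0455 to 0.37 for Twist1. Over all genes these fits called 0 and 0, except 1 higher and 2 lower without control replicate 2, and 14 and 3 without linc1253 replicate 1. DESeq2 called 23 and 27 genes and the edgeR exact test 38 and 42.

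With the replicate number as a block, limma called 933 genes higher and 1027 lower, and 1 member, Cldn6, lower (limma adjusted p = 6.79e-05). These were 933 and 1027 of 13407 genes. Of the wider lists, 1 of 37 epithelial genes was then called higher and 10 lower, and 9 of 23 mesenchymal genes higher and 2 lower. Of 7 primitive endoderm markers 4 were higher and 0 lower, and of 9 fibroblast markers 2 were higher and 1 lower. Same-numbered libraries deviated together, with a correlation of 0.673 over 13407 genes. The labels name no shared culture or day and there are 2 pairs, so the source of this shared deviation was not tested.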

Other observations

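Markers of the extraembryonic lineages showed another side of the same libraries. Of 8 primitive endoderm markers past the filter, 4 were higher and 0 lower at OHT 3D and 7 were higher and 0 lower at OHT 4D, beside 6.01% and 6.48% of all genes called higher at these time points. Col4a1, a basement membrane collagen, had 33.3 CPM in WT, 95.6 and 129 in the OHT libraries and 206 at Tc 2D. At Tc 2D 4 of the 8 were higher over WT and 1 was lower, beside 23.9% and 25.8% of all genes. The lower one was Cubn, at 0.458 CPM beside 1.97 in WT. Over the control shRNA mean 4 were also higher and 1 lower, beside 17.8% and 30.1%, but not all the same genes. Lama1 went from 0.59 over WT to -0.47, and Gata4 from -0.12 to 1.35. Of 6 trophectoderm markers, 3 were higher and 1 lower at OHT 3D and 4 higher and 0 lower at OHT 4D. At Tc 2D all 6 were higher over WT, beside 23.9% of all genes, and Hand1, a trophoblast transcription factor, went from 0.268 CPM in WT to 61.9. Hand1 was at 5.35 and 3.23 CPM in the control shRNA libraries. Over the control shRNA mean 5 of the 6 trophectoderm markers were higher, beside 17.8% of all genes, and Ascl2 went from 0.87 over WT to -0.22. Gata6, Sox17, Cdx2, Gata3 and Hand1 were under 1 CPM in WT and passed the filter through libraries in which they were higher, so these counts are a description.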
